A study of Mus musculus with 12 samples.

Results

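The transcripts of 38 mouse nuclear hormone receptor genes, the vitamin D receptor left out, were followed through RNA-seq libraries of primary hepatocytes, primary adipocytes and C2C12 cells. The genes were taken from a list of symbols. Of these genes, 37 were among the 18539 genes listed in at least 1 of the 3 deposited tables, and each table held 36. Nr2e1 was in no table, Nr2e3 was only in the C2C12 table with 1 count in 1 library, and Nr0b1 was in the hepatocyte and adipocyte tables at 0 in every library. At a level of at least 1 TPM (transcripts scaled to a fixed total, a level corrected for transcript length) in any library, 24 of the receptors were found in the hepatocyte table, 22 in the adipocyte table and 22 in that of C2C12. In all 3 cell types 16 receptors reached this level.

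Each cell type gave 4 libraries, 1 for each treatment, and 12 in all. The treatments were the vehicle DMSO, olanzapine (an atypical antipsychotic), olanzapine with calcifediol (25-hydroxyvitamin D3, the circulating form) and olanzapine with calcitriol (1,25-dihydroxyvitamin D3, the active form). Exposure lasted 36 h, of which 24 h were with calcifediol at 10 µM, calcitriol at 0.1 µM or vehicle and the last 12 h also with olanzapine at 1 µM. Hepatocytes came from male C57BL6/J mice 6 to 8 weeks old and were treated in serum-free medium that held 1 µM dexamethasone, a ligand of the glucocorticoid receptor. Adipocytes were differentiated from preadipocytes of neonatal C57BL6/J subcutaneous fat with a hormone mixture that included glucocorticoids and triiodothyronine, were maintained with 1 nM triiodothyronine, and were treated in Advanced DMEM/F12. C2C12 is a mouse myoblast line, here differentiated to myotubes in horse serum and also treated in Advanced DMEM/F12. No condition was repeated, so a difference between 2 libraries has no replicate check, and cell type and table, and for hepatocytes also the treatment medium, cannot be told apart.

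Nuclear receptors are transcription factors, most of which bind DNA as dimers and change the transcription of nearby genes when a small lipophilic ligand fills their pocket. Their ligands include thyroid hormone, retinoic acid, steroids, fatty acids and oxysterols, while others, called orphans, have no settled natural ligand. In liver they govern lipid, bile acid and drug metabolism, in fat the adipocyte program, and in muscle mitochondrial and oxidative metabolism. In these bulk samples fewer cells of a type and less RNA per cell cannot be told apart.

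The library totals lay between 15641436 and 19348348 counts, so that 3 counts, the limit that a count of 0 allows, stood for 0.155 to 0.192 CPM (counts scaled to a fixed library total). The cell type labels held against their markers. Hepatocyte markers summed to between 76023 and 81114 CPM in the hepatocyte libraries and to at most 3.31 CPM elsewhere. Adipocyte markers summed to between 8113 and 9265 CPM in the adipocyte libraries, and skeletal muscle markers to between 18408 and 19819 CPM in the C2C12 libraries. The adipocyte cultures also held fibroblast and preadipocyte markers at 13948 to 16528 CPM. In the hepatocyte libraries macrophage and Kupffer cell markers summed to 438 CPM with vehicle, 398 with olanzapine, 306 with calcifediol and 406 with calcitriol. Their part in the hepatocyte results was not tested. In C2C12 several marker lists moved with the vitamin D metabolites. The stellate and smooth muscle list stood at 5045 and 5090 CPM in the vehicle and olanzapine libraries and at 1635 and 2348 CPM in the calcifediol and calcitriol libraries. The fibroblast and preadipocyte list stood at 6734 and 6920 CPM against 9476 and 10082 CPM, and the macrophage and Kupffer cell list, at low levels, at 2.72 and 2.13 CPM against 7.17 and 4.17 CPM. The part of these shifts in the C2C12 results was not tested.

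In hepatocytes the receptor with the highest level was Hnf4a, which maintains hepatocyte identity, with 14011 counts in the vehicle, 14698 in the olanzapine, 14036 in the calcifediol and 16268 in the calcitriol library. Its TPM ran from 274 to 325 and made up 38.5 to 41.8% of the summed TPM of all receptors. Next came the COUP-TF member Nr2f6, an orphan repressor, at 85.7 to 97.4 TPM, and the oxysterol receptors Nr1h2 (LXR beta) at 68.3 to 77.3 TPM and Nr1h3 (LXR alpha) at 60.8 to 71.6 TPM. The ranges of the 2 LXR genes overlapped, whereas those of Hnf4a and Nr2f6 overlapped no other receptor.

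Several receptors of hepatic metabolism were found in hepatocytes alone or nearly so. Nr1i2 (PXR, the xenobiotic sensor) had 702, 705, 747 and 795 counts in the vehicle, olanzapine, calcifediol and calcitriol libraries, an order that holds for every run of 4 values from here on. It had 0 counts in all adipocyte libraries, so its summed CPM was at least 854-fold higher in hepatocytes. Nr5a2 (LRH-1, a regulator of bile acid and cholesterol genes) had 745, 825, 667 and 778 counts in hepatocytes and 0 in all C2C12 libraries, a difference of at least 953-fold. For Hnf4a the difference from C2C12 was at least 18646-fold, and in adipocytes it had 2 counts over 4 libraries. Nr1i3 (CAR, the partner of PXR in drug sensing) had only 28, 20, 20 and 22 counts in hepatocytes, and 3304 exonic bases of its locus overlap Tomm40l on the opposite strand. These bounds rest on 3 counts over the whole group and, as all such limits here, cover counting error only.

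In adipocytes Pparg, the master regulator of adipocyte differentiation, had 8396, 7283, 7955 and 7005 counts. Its level of 495 to 584 TPM was 37.3 to 43.7% of the summed TPM of the receptors, and its summed CPM was 37.8-fold that of hepatocytes and 49.7-fold that of C2C12. No other receptor came near it. Nr1h3 followed at 142 to 149 TPM, with 2019, 2144, 2274 and 2071 counts. Thra, the thyroid hormone receptor alpha, lay at 106 to 111 TPM with 2146, 2244, 2347 and 2180 counts, of all receptors tested in adipocytes the one that varied least. Its libraries did not overlap those of hepatocytes (172 to 244 counts), though exons of Thra overlap Nr1d1 on the opposite strand over 263 bases. The order Pparg, Nr1h3, Nr1h2 and Thra held without overlap of their TPM ranges, whereas Ppard, Rara and Esrra, at medians of 82.2, 79.8 and 70.3 TPM, overlapped in range.

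In C2C12 the retinoic acid receptor gamma, Rarg, had 3396, 3356, 3233 and 2981 counts. Its TPM median of 126 was the highest of the receptors, but its range overlapped that of Nr1h2, which had 2153, 2144, 2280 and 2025 counts and the highest TPM in the calcifediol library. Summed CPM of Rarg was 20.4-fold that of hepatocytes and 8.13-fold that of adipocytes. The orphan Nr2f1 (COUP-TF I) had 684, 723, 591 and 739 counts in C2C12 against 91 to 135 in adipocytes and 1 count over the 4 hepatocyte libraries. Rorb (an orphan of the ROR family) reached 1 TPM in C2C12 alone, with 84, 105, 120 and 113 counts and 0 in every hepatocyte library. By contrast Ppara, the fatty acid sensor of oxidative tissues, had 4, 5, 3 and 6 counts in C2C12, and Thrb had 0, 1, 1 and 0. Both were far higher in hepatocytes, 277-fold for Ppara and 803-fold for Thrb in summed CPM, with the low C2C12 counts limiting how well these folds are known.

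**Figure D1:**
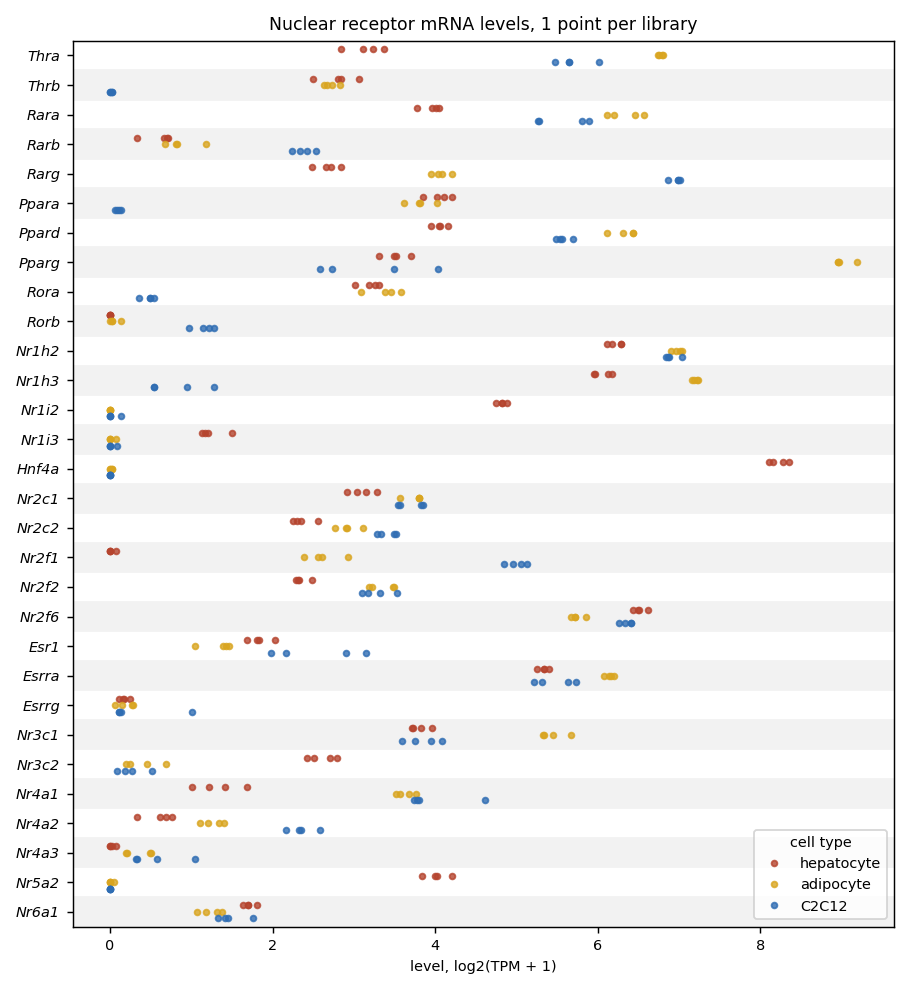
Level of the 30 receptors that reached 1 TPM in at least 1 library, as log2(TPM + 1) on the horizontal axis, with 1 point per library and a colour per cell type. Hnf4a, Nr1i2 and Nr5a2 stand apart in hepatocytes, Pparg in adipocytes and Rarg and Nr2f1 in C2C12, while the points of a cell type lie close together except for receptors such as Esr1, Pparg, Esrrg and Nr4a1 in C2C12.

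The remaining families showed smaller contrasts. Rara, the retinoic acid receptor alpha, was the highest of its family in hepatocytes (566, 510, 480 and 556 counts) and adipocytes (1777, 2358, 2051 and 2343 counts). Rora led the ROR family in hepatocytes with 975, 1068, 902 and 1066 counts and in adipocytes with 777, 863, 705 and 845. Its levels overlapped between these cell types, at medians of 8.34 and 9.74 TPM, and were at most 0.458 TPM in C2C12. Ppara led the PPAR family in hepatocytes, with 1277, 1321, 1169 and 1485 counts, though its TPM range overlapped that of Ppard. In C2C12 the leading PPAR was Ppard, the broadly expressed form, with 1320, 1358, 1460 and 1342 counts.

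Nr2f6 led the COUP-TF family in each cell type, with 2414, 2153, 2221 and 2246 counts in hepatocytes, 900, 955, 1138 and 915 in adipocytes, and 1643, 1715, 1650 and 1507 in C2C12. It overlaps Ocel1 on the opposite strand over 1622 exonic bases. The testicular receptors Nr2c1 and Nr2c2, orphan repressors, lay between 3.76 and 13.4 TPM in all libraries, and Nr2c2 overlaps Mrps25 over 4590 exonic bases. Nr6a1 (GCNF) lay between 1.09 and 2.49 TPM. None of these 4 receptors was near 0 in any cell type.

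Nr3c1, the glucocorticoid receptor, had 2273, 2724, 2293 and 2064 counts in adipocytes (39.0 to 49.9 TPM), above hepatocytes with 885, 1023, 917 and 987 counts and C2C12 with 754, 687, 913 and 845. The hepatocyte and C2C12 ranges of 12.1 to 14.6 and 11.1 to 15.9 TPM overlapped. Nr3c2, the mineralocorticoid receptor, reached 1 TPM in hepatocytes alone (225, 279, 243 and 298 counts). Of the sex steroid receptors listed only Esr1, the estrogen receptor alpha, reached 1 TPM, with 135, 154, 141 and 136 counts in hepatocytes and 81, 90, 54 and 78 in adipocytes. Esr2, Pgr, Esrrb, Hnf4g and Nr5a1 lay under 1 TPM in every library. Esrra, which drives mitochondrial genes, was spread over the cell types at 37.1 to 41.3 TPM in hepatocytes, 66.8 to 72.6 in adipocytes and 36.3 to 52.1 in C2C12.

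Across cell types, 27 of 36 receptors did not overlap between hepatocyte and adipocyte libraries in CPM, as did 63.9% of all genes listed in both tables. For hepatocytes and C2C12 this held for 27 of 35 receptors and 69.2% of genes, and for adipocytes and C2C12 for 21 of 35 receptors and 66.7% of genes. In a fit of all 12 libraries with edgeR, 29 receptors passed the filter of 1 CPM in 2 libraries. Between hepatocytes and adipocytes 26 of these 29 differed at a false discovery rate (FDR) of at most 0.05, beside 81.7% of all genes fitted. Between hepatocytes and C2C12 26 differed (84.6% of genes) and between adipocytes and C2C12 21 did (82.1%). Hnf4a, Nr1i2, Nr1i3 and Nr5a2 had passed the filter through hepatocytes alone and Rorb and Nr4a3 through C2C12 alone, so nothing is read from these counts.

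To see what olanzapine did, its library was set against the vehicle library of each cell type by the Audic-Claverie test, with a call at a 2-fold change or more and an FDR of at most 0.05. This test compares the reads of 2 libraries, not the conditions. No receptor was called in hepatocytes (0.356% of all genes were), in adipocytes (1.22%) or in C2C12 (0.313%). The largest log2 ratio in hepatocytes was that of Nr4a1, an immediate early orphan receptor, which had 66 counts with vehicle and 40 with olanzapine (-0.68, 95% interval -1.29 to -0.10, FDR = 0.0761). In adipocytes Pparg had 537 CPM with vehicle and 430 to 462 CPM in the 3 libraries with olanzapine, so the vehicle library was the highest. The log2 ratio of olanzapine to vehicle was -0.32 (-0.37 to -0.27, FDR = 1.2e-41), short of 2-fold. Rara stood at 0.29 (0.20 to 0.38, FDR = 1.9e-09), with 114 CPM against 139. The highest ratio of the receptors tested there was that of Ppara at 0.32, with 44.7 CPM against 55.7. In the edgeR fit with an olanzapine effect shared by the cell types, 0 of 29 receptors and 0 of 13288 genes were called, 0 receptors had an unadjusted p under 0.05, and DESeq2 and limma also called 0 receptors.

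In hepatocytes no receptor passed with the vitamin D metabolites either. None of 24 tested receptors passed in the comparison of calcifediol (0.566% of all genes called) or of calcitriol (0.702%) with olanzapine alone. Both comparisons share the olanzapine library, and the 2 metabolites were given at different doses, so their values are only set side by side. Thra had 13.3 CPM with olanzapine, 8.97 with calcifediol and 10.8 with calcitriol, and its vehicle library had 12.1. Its calcifediol and calcitriol libraries were the lowest, with log2 ratios of -0.57 (-0.86 to -0.28, FDR = 0.000603) and -0.31 (-0.58 to -0.04, FDR = 0.0998). Against the vehicle library, with 66 counts, Nr4a1 was called lower with calcifediol at 32 counts (-1.06, FDR = 0.00313), where 0.584% of all genes were called. Hnf4a stood at -0.13 (-0.17 to -0.10) with calcifediol and 0.07 (0.04 to 0.10) with calcitriol. The median over the receptors tested was -0.15 with calcifediol and 0.04 with calcitriol, beside -0.01 and 0.00 over all genes.

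In adipocytes likewise none of 22 tested receptors was called with calcifediol (1.52% of all genes) or with calcitriol (0.974%). Esr1 had 5.31 CPM with olanzapine, 3.13 with calcifediol and 4.90 with calcitriol, and the calcifediol library was the lowest of the 4. Its log2 ratios were -0.76 (-1.28 to -0.26, FDR = 0.00771) and -0.12 (-0.57 to 0.34, FDR = 0.803). Nr3c1 stood at 145 and 161 CPM in the vehicle and olanzapine libraries and at no more than 133 CPM in the metabolite libraries, which lay below both. The ratios were -0.27 (-0.35 to -0.19, FDR = 3.8e-10) and -0.31 (-0.39 to -0.23, FDR = 8.93e-12). Rarb, named after its values were seen and which reached 1 TPM only in the calcifediol library, had 15, 19, 32 and 16 counts and a ratio of 0.71 (-0.14 to 1.63, FDR = 0.204), and it overlaps Top2b over 1793 exonic bases on the opposite strand.

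C2C12 was the cell type in which receptors passed the test. With calcifediol 4 of 22 tested receptors were called and all were higher, beside 11.6% of all genes called in either direction and 5.28% called higher. They were Pparg, Esr1, Nr1h3 and Esrrg. With calcitriol 2 of 22 were called, both higher, beside 8.36% of genes in either direction and 4.43% higher. They were Esr1 and Nr4a3. Esrrg and Nr1h3 reached 1 TPM only in the calcifediol library and Nr4a3 only in the calcitriol library, so that these 3 entered the test through the library in which they were high. The medians of 0.42 and 0.11 over the tested receptors, beside 0.03 and 0.02 over all genes, include them.

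**Figure D2:**
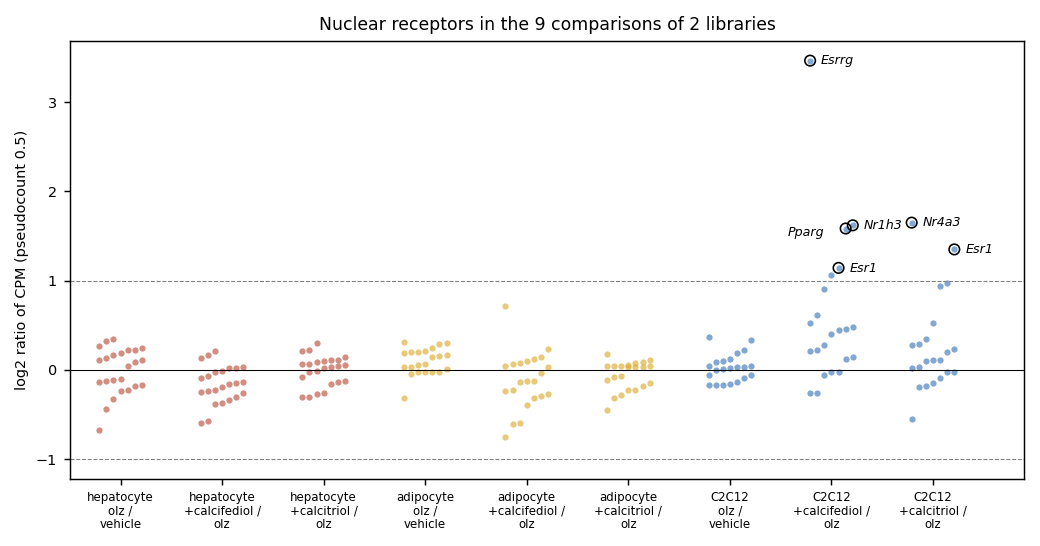
Log2 ratio of CPM (pseudocount of 0.5 counts) of each tested receptor in the 9 comparisons of 2 libraries, with 1 point per receptor. Dashed lines stand at a 2-fold change, rings mark calls and olz stands for olanzapine. Rings occur in C2C12 alone, on Pparg, Esr1, Nr1h3 and Esrrg with calcifediol and on Esr1 and Nr4a3 with calcitriol.

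Pparg had 110 and 95 counts in the C2C12 vehicle and olanzapine libraries and 279 and 189 in the calcifediol and calcitriol libraries, or 5.98, 5.32, 16.0 and 10.5 CPM. Both metabolite libraries lay above both others. The log2 ratio to olanzapine was 1.58 (1.25 to 1.94, FDR = 3.53e-22) with calcifediol and 0.98 (0.62 to 1.35, FDR = 1.73e-07) with calcitriol, the latter just short of 2-fold. Even so, the highest C2C12 value was below every adipocyte library, the lowest of which had 430 CPM of Pparg.

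Esr1 had 160, 138, 298 and 355 counts, or 8.69, 7.72, 17.1 and 19.7 CPM, and again the 2 metabolite libraries were the highest. Its ratio was 1.14 (0.85 to 1.45, FDR = 1.09e-14) with calcifediol and 1.35 (1.07 to 1.65, FDR = 9.93e-22) with calcitriol. With the vehicle library as reference, the calcifediol ratio was 0.97, under the 2-fold threshold. Among the 22 receptors Esr1 was the only one called with both metabolites.

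Esrrg, an estrogen-related receptor of oxidative muscle, had 4, 4, 48 and 5 counts, high in the calcifediol library alone. The ratio was 3.46 (2.17 to 5.55, FDR = 3.47e-10) with calcifediol and 0.28 (-1.90 to 2.64) with calcitriol. Nr1h3 had 7, 7, 22 and 14 counts, highest with calcifediol, and ratios of 1.62 (0.41 to 3.16, FDR = 0.0131) and 0.94 (-0.42 to 2.54, FDR = 0.284). Nr4a3, an immediate early orphan receptor, had 14, 12, 25 and 39 counts, highest with calcitriol, and ratios of 1.06 (FDR = 0.0654) and 1.65 (0.73 to 2.76, FDR = 0.00066). The wide intervals follow from these low counts.

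Nr4a1 had 307, 301, 551 and 298 counts, so that the calcifediol library alone stood out. Its ratio of 0.91 (0.70 to 1.11, FDR = 2.71e-18) with calcifediol was under 2-fold, and with calcitriol it was -0.02 (-0.26 to 0.21). Other receptors moved by less. Rara had 1147, 1111, 1667 and 1608 counts and ratios of 0.62 (0.51 to 0.73) and 0.52 (0.41 to 0.63). Esrra had 805, 750, 1022 and 961 counts and ratios of 0.48 and 0.35. For both genes the metabolite libraries were the 2 highest. Thra had 1109, 981, 1380 and 1068 counts, with the calcifediol library alone above the rest.

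**Figure D3:**
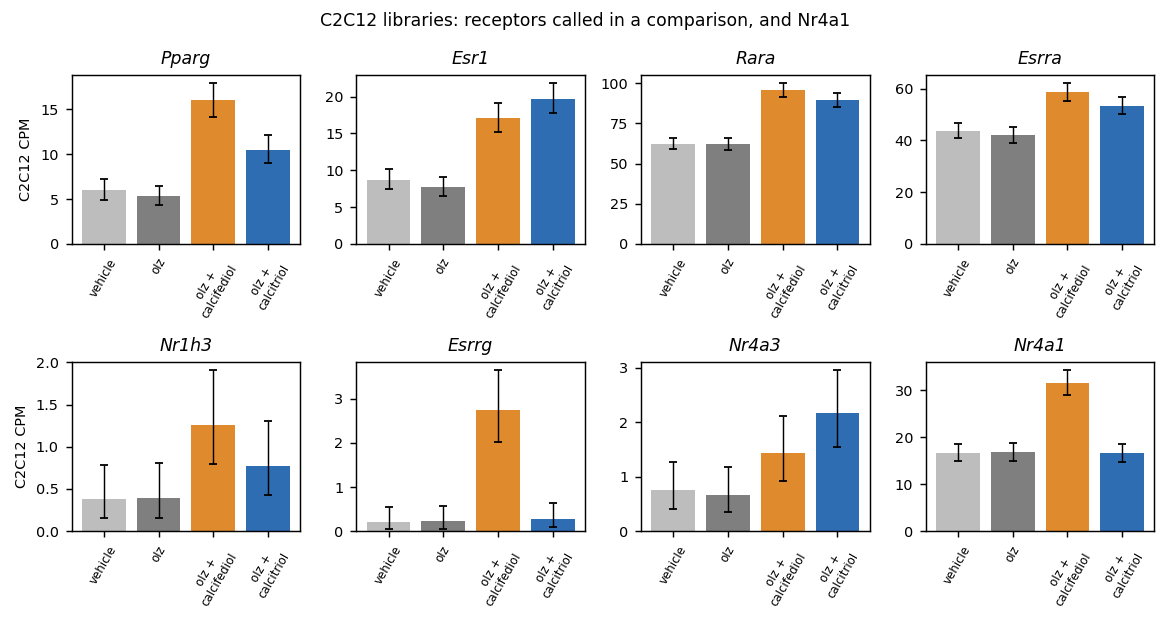
CPM of 8 receptors in the 4 C2C12 libraries (olz, olanzapine), with bars from 0 and exact 95% Poisson intervals that cover counting error only. Pparg, Esr1, Rara and Esrra are higher in both metabolite libraries than in both others, Esrrg and Nr4a1 are high with calcifediol alone, and Nr4a3 is highest with calcitriol.

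A second look took both metabolite libraries of a cell type together against its vehicle and olanzapine libraries (2 against 2) in an edgeR quasi-likelihood fit over all 12 libraries. The residual spread here includes the olanzapine effect and the difference between the metabolites and their doses. Both metabolite libraries held olanzapine but the vehicle library did not, so the fitted difference also carries part of any olanzapine effect. The p-values measure only the spread between these libraries. In C2C12, 5 of 29 receptors were called and all were higher, beside 23.9% of genes in either direction and 11.6% higher. Esr1 was higher by 1.14 on the log2 scale (SE 0.18, FDR = 0.000376) and Pparg by 1.2 (SE 0.20, FDR = 0.000489). Rara was higher by 0.55 (SE 0.12, FDR = 0.00504), Esrra by 0.36 (SE 0.09, FDR = 0.0101) and Nr1h3 by 1.35 (SE 0.38, FDR = 0.0171). Leaving out the C2C12 vehicle, olanzapine or calcifediol library left 3 calls, those of Esr1, Pparg and Rara, and leaving out the calcitriol library gave 8. Nr4a3 at 1.30 (FDR = 0.0536), which had entered the fit through the 2 metabolite libraries of C2C12 alone, and Nr3c1 at 0.30 (FDR = 0.0562) did not pass. Esrra overlaps Trmt112 on the opposite strand over 73 exonic bases.

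In hepatocytes edgeR called 0 receptors (0% of all genes), with 1 at an unadjusted p under 0.05, and DESeq2 and limma called 0 receptors. In adipocytes edgeR called 0 receptors (0.151% of genes), with 1 at an unadjusted p under 0.05, and again 0 by DESeq2 and limma. Non-overlap of the libraries was read beside its own background. In C2C12 both metabolite libraries lay above both others for 12 of 22 receptors (34.9% of genes) and below for 0 (29.9%). The 12 include Esrrg, Nr1h3 and Nr4a3, which reached 1 TPM only in a metabolite library, so nothing is read from this count. In adipocytes they lay above for 5 (14.4%) and below for 6 of 22 (24.7%), and in hepatocytes above for 1 (14.4%) and below for 4 of 24 (17.8%).

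Whether these differences depend on the cell type was tested as an interaction in the same fit. Against adipocytes, the C2C12 difference was larger for 2 receptors, beside 9.65% of genes called. It was larger by 1.49 (SE 0.29, FDR = 0.00448) for Esr1 and by 1.26 (SE 0.25, FDR = 0.00473) for Pparg. Against hepatocytes 3 were called, beside 8.04% of genes: Esr1 by 1.23 (SE 0.27, FDR = 0.0108), Pparg by 0.95 (SE 0.27, FDR = 0.0454) and Rara by 0.63 (SE 0.18, FDR = 0.0498). The last comparison gave 0 calls without the hepatocyte olanzapine or the C2C12 olanzapine library. Between adipocytes and hepatocytes edgeR called 0 receptors (0.0376% of genes), 0 had an unadjusted p under 0.05, and DESeq2 and limma called 0.

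**Figure D4:**
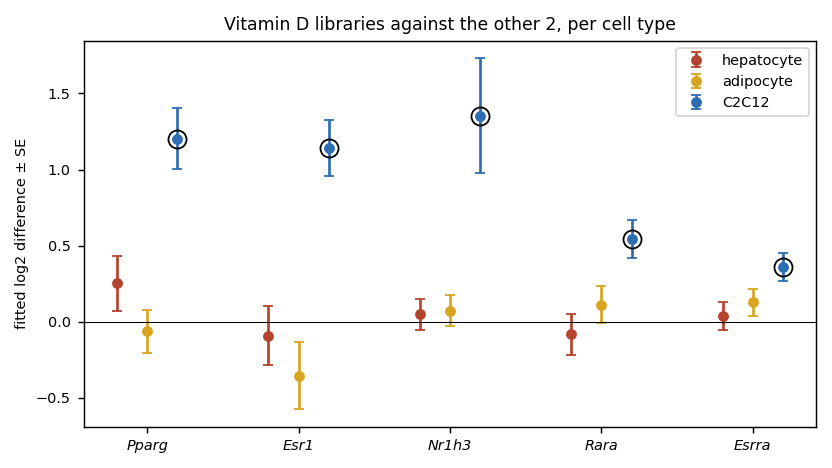
Fitted log2 difference of the 2 metabolite libraries from the other 2 in each cell type, with bars of 1 standard error and rings on an FDR of at most 0.05 (edgeR), for the 5 receptors called in C2C12. All 5 rings are in C2C12, and the hepatocyte and adipocyte points lie between -0.35 and 0.25.

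The sequence before the start is shown for Esr1, Esrra, Pparg and Rara, 4 of the 5 receptors called in the C2C12 edgeR fit. Nr1h3 was left out, since its windows overlap exons. Each sequence shown is the 250 bases before a RefSeq transcript start (GRCm38.p6), 5′ to 3′ on the strand of the gene. Capitals mark 6-base matches to a nuclear receptor binding motif, searched on both strands in 4 spellings, which were AGGTCA, the variant GGGTCA, the variant AGTTCA and the variant GGTTCA. The Esr1 window is at chr10:4709908-4710157 on the plus strand, the Esrra window at chr19:6921809-6922058 on the minus strand, the Pparg window at chr6:115421816-115422065 on the plus strand and the Rara window at chr11:98939461-98939710 on the plus strand.
Esr1: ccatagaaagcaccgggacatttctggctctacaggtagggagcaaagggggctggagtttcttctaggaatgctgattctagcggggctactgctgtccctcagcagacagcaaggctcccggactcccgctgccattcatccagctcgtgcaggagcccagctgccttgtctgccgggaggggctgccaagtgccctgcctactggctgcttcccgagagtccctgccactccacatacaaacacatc
Esrra: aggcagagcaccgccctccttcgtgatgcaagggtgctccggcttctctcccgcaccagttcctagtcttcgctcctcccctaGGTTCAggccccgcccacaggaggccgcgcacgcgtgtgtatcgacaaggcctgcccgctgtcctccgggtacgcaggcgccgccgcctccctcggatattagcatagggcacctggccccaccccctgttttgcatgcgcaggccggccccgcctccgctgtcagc
Pparg: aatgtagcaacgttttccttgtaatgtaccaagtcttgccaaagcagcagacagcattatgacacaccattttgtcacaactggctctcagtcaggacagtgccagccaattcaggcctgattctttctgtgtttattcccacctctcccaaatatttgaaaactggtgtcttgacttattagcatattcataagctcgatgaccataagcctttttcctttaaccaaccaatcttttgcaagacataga
Rara: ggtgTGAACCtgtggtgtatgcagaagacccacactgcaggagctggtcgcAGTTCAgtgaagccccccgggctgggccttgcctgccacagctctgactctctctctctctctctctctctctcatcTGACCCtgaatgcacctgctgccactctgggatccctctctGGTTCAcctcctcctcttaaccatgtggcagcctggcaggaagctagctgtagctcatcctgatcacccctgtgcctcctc

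The Esr1 window and this Pparg window held 0 of the 4 motifs, Esrra held 1 (GGTTCA, 167 to 162 bases before the start) and Rara held 4. The Rara window was shown for its motifs, and the other 3 Rara windows held 0. One other start of Pparg had AGGTCA at 28 to 23 bases before it, and another had AGGTCA at 9 to 4 and GGGTCA at 230 to 225 bases before it. Over all receptors, 17 of 52 windows (32.7%) held at least 1 of the motifs, beside 38.6% of the 32851 windows of all genes. A direct repeat of 2 motifs 3 bases apart, the spacing that the vitamin D receptor prefers, was in 0 of 52 receptor windows and 0.0396% of all windows. A repeat 5 bases apart was found for Rarb only (0.0883% of all windows). The repeats overlap the single motifs by construction, and a match is a description of letters, not a binding site.

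The genes around the receptors were taken in 11 lists of coregulators, ligand enzymes and known targets. These lists were chosen with earlier results of these data known, so their counts and medians are descriptive and test no receptor. A gene can count in more than 1 list, as do Cyp26a1 and Cyp26b1 among the ligand enzymes and the retinoic acid receptor targets. Beside each count in C2C12 stand the 11.6% of all genes called in either direction with calcifediol and the 8.36% with calcitriol. Of the list genes tested there, Abcg8, Creb3l3, Cyp26a1, Cyp26b1, Cyp2b10, Fabp4, Ppargc1a and Slc2a4 reached 1 TPM only in a metabolite library, and the counts and medians of their lists include them. In C2C12, of the enzymes that make or break down ligands, 2 of 10 tested genes were called higher and 3 lower with calcifediol, and 2 higher and 2 lower with calcitriol (11.6% and 8.36% of all genes). Their medians were -0.24 and 0.32, beside 0.03 and 0.02 over all genes. Dio2, the deiodinase that makes triiodothyronine, had 286, 248, 6692 and 5631 counts, with ratios to olanzapine of 4.79 (4.61 to 4.98) and 4.49 (4.31 to 4.68). Cyp26b1, which degrades retinoic acid, had 25, 20, 430 and 408 counts and ratios of 4.43 and 4.31. Both metabolite libraries stood far above the others for each gene. Aldh1a3, which makes retinoic acid, had 84, 60, 7 and 14 counts, and Ch25h, which makes 25-hydroxycholesterol, had 84, 98, 10 and 20, so that both were lowest with the metabolites.

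Of the targets of the retinoic acid receptors, 4 of 9 were called higher and 1 lower with each metabolite (11.6% and 8.36% of all genes in either direction), and the medians were 0.99 and 0.95. Cyp26a1 and Cyp26b1 were among the 9 through a metabolite library alone. Besides Cyp26b1, Tgm2 (transglutaminase 2) had 2760, 3074, 14479 and 17024 counts, highest in both metabolite libraries. Stra6, the membrane retinol transporter, went the other way with 109, 109, 13 and 43 counts. In adipocytes 1 of 6 retinoic acid receptor targets was called higher and 1 of 10 ligand enzymes lower with each metabolite. The shares of all genes called there were 1.52% with calcifediol and 0.974% with calcitriol. The called genes were Crabp2, a retinoic acid carrier that had 4, 8, 64 and 66 counts, and Aldh1a3 with 44, 34, 3 and 2.

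Among targets of PPAR gamma, 4 of 6 tested in C2C12 were called higher and 0 lower with each metabolite, beside 5.28% and 4.43% of all genes called higher, and the medians were 1.93 and 1.70. Fabp4 and Slc2a4 entered the test through the metabolite libraries alone, and with the vehicle library as reference 3 were called with calcitriol. Lpl (lipoprotein lipase) had 236, 258, 3496 and 1852 counts, Slc2a4 (the insulin-responsive glucose transporter) 9, 10, 46 and 48, and Cebpa 229, 185, 579 and 432. Fabp4, the fatty acid carrier of fat cells and macrophages, had 0, 0, 86 and 40 counts, at least 29.4-fold and 13.2-fold higher against 3 counts in the olanzapine library. Every one of these genes was higher in both metabolite libraries. Of 7 adipocyte markers 4 were listed in C2C12, and their sum was 3, 2, 7 and 4 counts (0.163, 0.112, 0.401 and 0.222 CPM). That sum was highest in the metabolite libraries but too low to read a change from. Plin1 was at 0 in every library and Adipoq at 1 count in 1 library. Macrophage markers (4 of 7 listed) summed to 2.72, 2.13, 7.17 and 4.17 CPM, of which Cd68 gave 42, 33, 124 and 69 counts while Ptprc was at 0 throughout, and their part was not tested.

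The remaining lists stand beside the same shares of all genes. Abcg8, Creb3l3, Cyp2b10 and Ppargc1a entered the test through a metabolite library alone, so nothing is read from their calls. Of 8 LXR targets tested, 1 was called higher and 1 lower with calcifediol and 2 higher and 1 lower with calcitriol, with medians of -0.27 and -0.04. Abcg1, a cholesterol exporter, had 60, 57, 13 and 7 counts, lowest with the metabolites. Smpdl3a, a phosphodiesterase, had 34, 27, 74 and 61 counts and was called higher with both, at 1.47 and 1.15. Abcg8, a sterol exporter, had 26, 27, 13 and 56 counts and was called higher with calcitriol alone, at 1.03. Of 7 glucocorticoid receptor targets 2 were higher and 1 lower with calcifediol and 0 with calcitriol, where Mt2 (metallothionein 2) had 311, 355, 1973 and 248 counts, high with calcifediol alone, and Fkbp5 had 469, 463, 166 and 262. The medians of that list were -0.01 and -0.39. Coregulators had 0 of 13 calls with calcifediol and 1 with calcitriol, Ppargc1a at 20, 22, 42 and 45 counts, and medians of 0.07 and 0.23. Of 9 PPAR alpha targets 0 were called with calcifediol and 1, Creb3l3 with 9, 7, 14 and 27 counts, with calcitriol (medians 0.39 and 0.22). Of 3 CAR and PXR targets 0 and 1 were called, Cyp2b10 at 1, 1, 6 and 21 counts with a calcitriol ratio of 3.83 (1.75 to 9.75), and the medians were 0.46 and 0.40. Of 3 thyroid hormone receptor targets 1 and 0 were called, Klf9 at 254, 242, 531 and 459 counts (medians 0.05 and -0.05). Klf9 appears to be also 1 of the 2 glucocorticoid receptor targets called higher with calcifediol. The 1 HNF4A target tested was not called. None of the 7 ERR targets was called (medians 0.24 and 0.22).

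**Figure D5:**
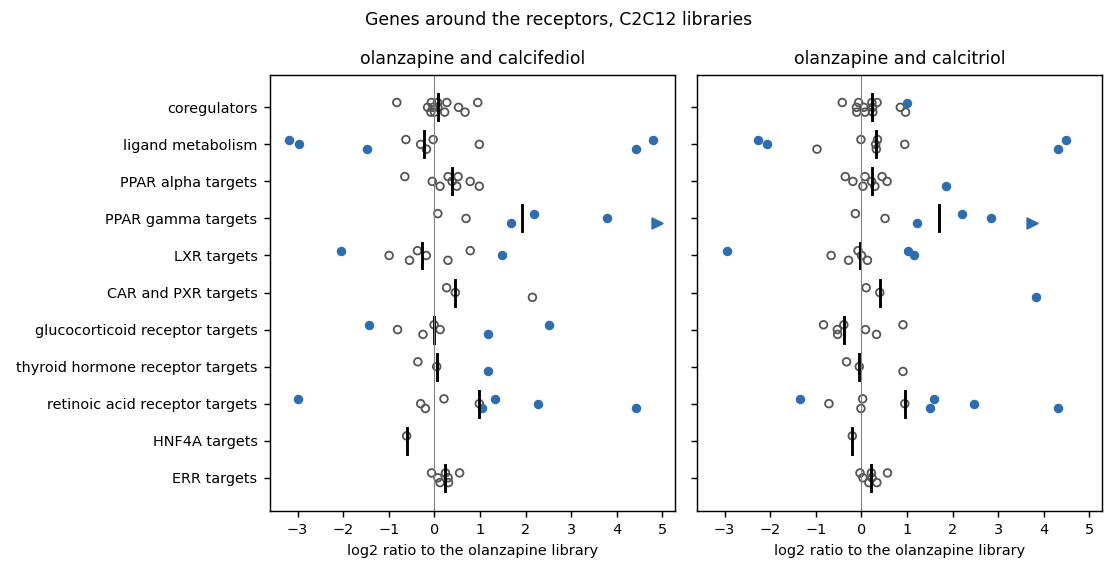
Log2 ratio to the olanzapine library of the tested genes of 11 lists in C2C12, for calcifediol (left) and calcitriol (right), filled where called, with a black bar at the median of the list and a triangle for Fabp4 at its lower bound. The medians of the PPAR gamma and retinoic acid receptor targets lie farthest to the right of 0, and the ligand metabolism list spreads to both sides. These medians include Fabp4 and Slc2a4 (PPAR gamma) and Cyp26a1 and Cyp26b1 (retinoic acid receptor), which entered the test through a metabolite library alone.

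In hepatocytes few list genes passed, beside 0.356% of all genes called with olanzapine, 0.566% with calcifediol and 0.702% with calcitriol. Fgf21, a fasting hormone and 1 of 15 PPAR alpha targets tested, had 41, 55, 21 and 21 counts. It was called lower with both metabolites against olanzapine, at -1.43 and -1.45. Its olanzapine library was the highest, and against the vehicle library no PPAR alpha target was called with either metabolite. Cyp7a1, the rate-limiting enzyme of bile acid synthesis, had 87, 171, 63 and 116 counts. It was called higher with olanzapine against vehicle and lower with calcifediol against olanzapine. Both calls use the olanzapine library, in which it was highest. No HNF4A target, of 10 tested in the list that holds Cyp7a1, was called against vehicle with either metabolite. Cyp2c55, 1 of 8 PXR and CAR targets tested, was called higher with calcifediol at 10, 14, 35 and 12 counts. At such low counts Cyp2c55 may have entered the test through the calcifediol library alone, so nothing is read from its call. In the calcitriol library 3 of 8 PPAR gamma targets tested were called higher. These were Adipoq (0, 0, 5 and 33 counts), Plin1 (1, 1, 2 and 39) and Lpl (67, 87, 94 and 186). Adipoq and Plin1 had 5 counts or fewer in the other libraries. They appear to have entered the test only through the calcitriol library. That library also had the highest sum of adipocyte markers, 281 counts against 110 to 157 in the others, a list that shares genes with the targets. The part of adipocyte transcripts there was not tested, and Pparg itself had 236 counts against 276 with calcifediol.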

How the data were processed

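Poly(A)+ RNA was sequenced on DNBseq. According to the methods and submitters' processing notes, the authors filtered reads with SOAPnuke, used HISAT 2.0.4 and Bowtie 2.2.5 for alignment against the GRCm38.p6 genome, and counted with RSEM 1.2.8; the strand setting is not given in the sources used here. The deposited tables, 1 for each cell type, hold expected counts and FPKM values that the authors computed per sample. Expected counts were rounded (5.35 to 6.98% were not whole) and TPM was computed from FPKM. The 12 deposited columns of TPM were not used.

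Members and gene lists were chosen with earlier results of these data known. Pairs of libraries were compared by the Audic-Claverie test, the method of the study, over genes at 1 TPM in any library of the table. Ratios had a pseudocount of 0.5 counts. Call thresholds were 2-fold and a Benjamini-Hochberg FDR of 0.05, and ratio intervals were exact at 95%. The 13288 genes in all 3 tables with 1 CPM in 2 libraries were fitted with edgeR 4.0.16 (quasi-likelihood, 6 cell type by vitamin D means). DESeq2 1.42.0, limma 3.58.1, other scalings, filters and left-out libraries were alternatives. R 4.3.3, Python 3.11.15, numpy 2.4.6, scipy 1.17.1 and pandas 2.3.3 were used, and the tests were checked on simulated data. Reads carry no molecular identifiers, so intervals and floors cover counting error only. Full values are given for receptors called in a test and for the highest of each family by cell type, and otherwise up to 4 genes of a list with the largest ratio. Individual values of some list genes are not reported here. Promoter windows are from RefSeq GRCm38.p6 and covered 34 of the receptors; 44 of their 52 windows matched a transcript start.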

Additional observations from a re-analysis of the deposited data

Results flagged for a closer look

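The difference between the vitamin D metabolite libraries and the other libraries was tested between cell types by an interaction term in edgeR. Against adipocytes, C2C12 gave calls for 2 of 29 receptors (6.9%), beside 9.65% of all genes. Against hepatocytes it gave 3 of 29 (10.3%), beside 8.04%. Nothing is read from these counts, which lie near those shares. For Esr1 the difference in C2C12 exceeded that in adipocytes by 1.49 and that in hepatocytes by 1.23 on the log2 scale. For Pparg it exceeded that in adipocytes by 1.26 and that in hepatocytes by 0.95. For Rara it exceeded that in hepatocytes by 0.63, and against adipocytes Rara was not called (FDR = 0.144). The calls against hepatocytes held under 7 of 17 alternatives for Pparg and 9 of 17 for Rara.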

How the results depend on the processing

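No pairing by replicate was possible because each condition has 1 library, so that the groups compared share fewer than 2 replicate numbers. The fit with a shared olanzapine effect matched the olanzapine and vehicle libraries by cell type. The counts of called receptors stayed within 1.5 times of those reported in 198 results under alternatives and moved further in 17. With the vehicle library as reference, 1 receptor (Nr4a1, -1.06, FDR = 0.00313) was called with calcifediol in hepatocytes in place of 0. With no filter on low values, 1 receptor (Nr3c2) was called in adipocytes with olanzapine and 1 with calcifediol, and 4 (Esr1, Nr3c2, Nr4a3 and Nr5a1) in C2C12 with calcitriol. Leaving out 1 library gave 3 to 8 calls for the C2C12 metabolite difference, 2 to 5 for C2C12 against adipocytes and 0 to 6 for C2C12 against hepatocytes, the highest each time without the C2C12 calcitriol library. Esr1, Pparg and Rara passed in C2C12 under all 18 alternatives run for the edgeR fit, whereas Esrra passed in 15 of 18 and Nr1h3 in 14 of 17. Against hepatocytes Pparg passed in 7 and Rara in 9 of 17, and Esr1 in 15. Over all genes, the hepatocyte metabolite difference gave 0 calls by edgeR, 10 by DESeq2, 37 by limma and 29 from the 4 hepatocyte libraries alone. For adipocytes the counts were 20 by edgeR and 42 by DESeq2. Receptors with under 50 counts, such as Esrrg, Nr1h3 and Nr4a3 in C2C12, are limited by depth, and the cause of each change of call was not tested.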
